A study of Mus musculus with 30 samples.

Results

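The data are 10 of the 30 libraries of the series: descending colon from 2 cages of mice that carry one strain label, 5 libraries from cage C against 5 from cage B. The libraries were chosen by their labels for region and cage, with no measured value involved. All 10 came from female mice labelled 'Mixed BL/6-129SvJ', aged 2.6 months in cage B and 3.2 months in cage C. Cage B gave 3 libraries with the genotype Control and 2 with the genotype TM-DKOAsc, and cage C gave 2 and 3. TM-DKOAsc mice are called mutants here. They are C1galt1f/f;VillinCre-ERT2;C3GnT-/-: the core 1 O-glycan enzyme C1galt1 is floxed and deleted in the gut epithelium by a Cre recombinase that the Villin promoter drives and tamoxifen switches on, and C3GnT (B3gnt6, the core 3 enzyme) is deleted everywhere. Controls are described as WT littermates. Per the labels' protocols, mutants and littermates received 0.5 mg of tamoxifen a day for 5 days and were analysed 5 or 10 days after the last dose, and the labels do not say which time applies to which mouse. The series' design text states that all groups carried the same microbiota. Cage and age change together, as would anything else that cage mates share, so these cannot be told apart. For reference, the 5 descending libraries of cage A (3.4 months, 'C57BL/6 Background') are given beside some values, and the 10 ascending colon libraries of cages B and C are given for the same contrast in the other region.

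Values are FPKM, counts of fragments scaled by gene length and by library size, which allow levels of different genes to be set side by side. Differences are cage C minus cage B on the scale of log2(FPKM + 1), with genotype as a covariate, and are given with their standard error. Estimated depth was 6.92 to 8.81 M reads in cage B and 5.1 to 7.9 M reads in cage C. Mutant C1 (mutant, cage C, title number 1) stood apart: its median correlation with the other libraries was 0.894, against 0.961 to 0.973 for the other 9, and results that rest on it are also given without it. Epithelial RNA was present in all 10 libraries, with the villus and microvillus gene Vil1 at 189 to 298 FPKM and the colonocyte carbonic anhydrase Car1 at 429 to 2591 FPKM. These 2 genes were not used to tell descending from ascending colon. B3gnt6 was at or below 0.43 FPKM in all 10 libraries and so says little of the genotype labels. C1galt1 was at 20.4 to 34.8 FPKM in cage B and at 14.6 to 34.0 in cage C. Its cage difference was -0.03 ± 0.20, which is no check of the genotype labels. In the same fit, mutants and controls differed at 0 of 12128 genes at an adjusted p under 0.05 (limma). C1galt1 was among the genes tested, and 273 genes (2.25%) had an unadjusted p under 0.05.

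MHC class II molecules present peptides from ingested material to CD4+ T cells. An alpha and a beta chain, held together during assembly by the invariant chain Cd74, receive their peptide in an endosome, where H2-DM removes the invariant chain fragment. The transactivator CIITA, encoded by Ciita, drives these genes together, interferon gamma induces it, and in the gut both professional antigen-presenting cells and epithelial cells can carry the complex.

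CIITA acts through a short promoter module that holds an X box and a Y box, and the 150 bases before the RefSeq start of 2 of the chain genes are shown because these genes differed together between the cages. Both come from RefSeq on GRCm38.p6: H2-Aa from chr17:34287824.0-34287973.0 on the minus strand and H2-Eb1 from chr17:34305717.0-34305866.0 on the plus strand. Capitals mark, in order, the letters CTNGNAAC (an X box core) and TGATTGG (the Y box core).
H2-Aa: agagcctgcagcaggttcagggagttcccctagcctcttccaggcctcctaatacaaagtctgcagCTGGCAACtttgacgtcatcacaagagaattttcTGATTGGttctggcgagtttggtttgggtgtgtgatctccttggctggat
H2-Eb1: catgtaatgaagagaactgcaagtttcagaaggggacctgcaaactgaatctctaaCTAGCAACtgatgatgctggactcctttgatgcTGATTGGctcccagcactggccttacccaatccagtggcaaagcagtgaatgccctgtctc
The 2 stretches in capitals were 26 bases apart in H2-Aa and 25 bases apart in H2-Eb1. H2-DMb1 held the same pair 26 bases apart and H2-Ob 23 bases apart. H2-DMa and Ctss held neither motif, and H2-DMb2 and H2-Oa held the Y box letters without the X box letters. No promoter window was available for H2-Ab1, Cd74 or Ciita, so the pair was not looked for there. Searched on both strands over 32851 promoter windows that reach 250 bases before each start, the first motif was found in 10.9% of windows and the second in 7.23%. The pair in this order with 10 to 40 bases between was found in 24 windows (0.0731%), which belong to 21 genes. The letters were chosen with these promoters in view, so the match describes these sequences and supports nothing else. Outside class II, genes with the pair included Stat2, a signal transducer of interferon receptors. Its mean levels were 11.2 FPKM in cage B and 11.5 in cage C (difference -0.01 ± 0.21). Dnmt1, the maintenance DNA methyltransferase, had mean levels of 14.6 and 14.0 FPKM (-0.06 ± 0.14). Over the genes with the pair tested outside class II, differences ran from -0.17 ± 0.14 for Ift27 to 0.45 ± 0.32 for Prdm10.

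Of 12128 genes tested, 4 passed an adjusted p under 0.05 (0.033%, limma with Benjamini-Hochberg adjustment), and all 4 were lower in cage C. They were H2-Aa, H2-Ab1 and H2-Eb1, which encode chains of the class II molecules, and Cd74, the invariant chain. Each had an adjusted p of 0.0484, close to the threshold. No gene passed as higher in cage C, where 502 genes (4.14%) had an unadjusted p under 0.05, against 229 genes (1.89%) on the lower side, 731 in all (6.03%). The 3 chain genes are neighbours on chromosome 17, with starts between 34257689 and 34305867 (GRCm38), and Cd74 is on chromosome 18.

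H2-Aa (ENSMUSG00000036594.14; chromosome 17, 34282744 to 34287823), the alpha chain of I-A, was at 290, 454 and 108 FPKM in controls B1, B2 and B3 and at 185 and 60.6 in mutants B1 and B2. In cage C it was at 12.3 and 11.1 FPKM in controls C1 and C2 and at 9.44, 16.9 and 4.68 in mutants C1, C2 and C3. The lowest library of cage B was therefore above the highest of cage C in both genotypes. The means were 220 ± 157 (SD, n = 5) and 10.9 ± 4.45 FPKM (n = 5), a 20.2-fold ratio of means, and the log2 difference was -3.83 ± 0.46. In cage A the gene was at 70.3 to 245 FPKM, which overlaps cage B and lies above every library of cage C.

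H2-Ab1 (ENSMUSG00000073421.5; chromosome 17, 34257689 to 34269419), the beta chain that pairs with H2-Aa, was at 244, 354 and 88.5 FPKM in the controls and at 165 and 57.1 in the mutants of cage B. In cage C it was at 10.97 and 9.20 FPKM in the controls and at 16.5, 17.9 and 4.52 in the mutants. The cages did not overlap, and mutant C3 was again the lowest library. The log2 difference was -3.58 ± 0.49, with means of 182 ± 121 and 11.8 ± 5.48 FPKM. H2-Eb1 (ENSMUSG00000060586.10; chromosome 17, 34305867 to 34316674), the beta chain of I-E, was at 237, 277 and 71.9 FPKM in the controls and at 117 and 69.9 in the mutants of cage B. Its cage C values were 18.6 and 15.8 FPKM in the controls and 17.7, 21.1 and 7.24 in the mutants. The difference was -2.91 ± 0.40, with means of 154 ± 96.3 and 16.1 ± 5.29 FPKM and no overlap.

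Cd74 (ENSMUSG00000024610.14; chromosome 18, 60803848 to 60812652) was the most abundant of the 4, at 964, 1206 and 379 FPKM in the controls and at 582 and 265 in the mutants of cage B. In cage C it was at 40.8 and 52.3 FPKM in the controls and at 65.1, 79.8 and 16.1 in the mutants. The means were 680 ± 399 and 50.8 ± 24.3 FPKM, a 13.4-fold ratio, and the log2 difference was -3.57 ± 0.48. Control B2 was the highest and mutant B2 the lowest library of cage B for H2-Aa and Cd74, so the spread within cage B was shared by chain and invariant chain.

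**Figure D1:**
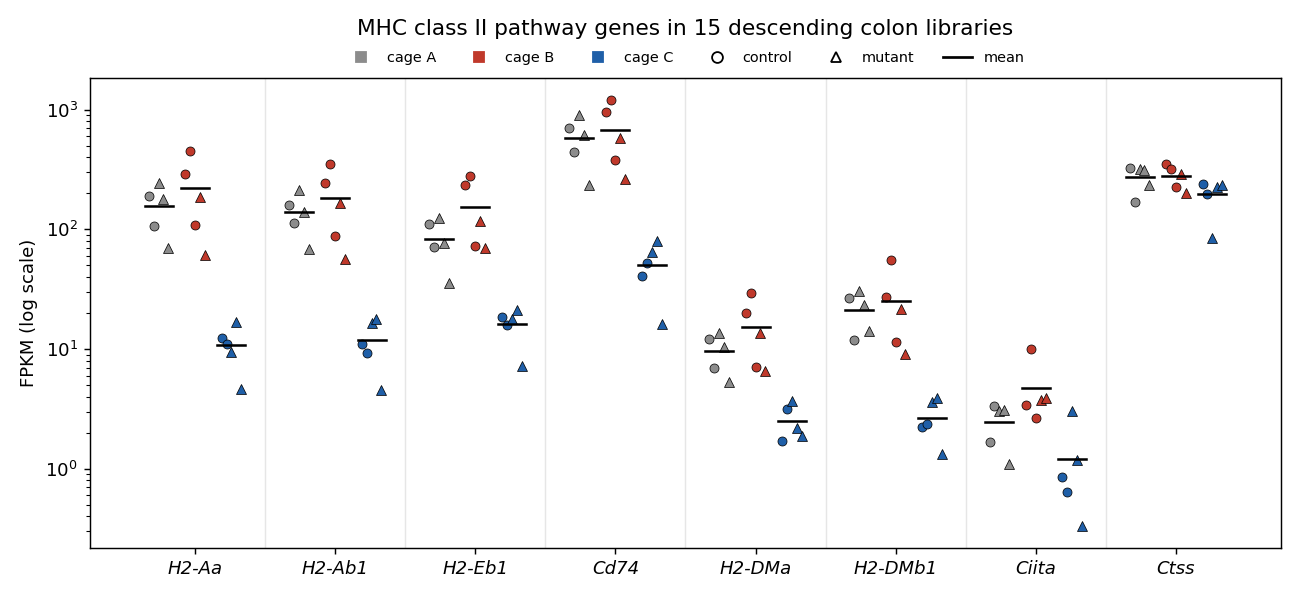
FPKM (log axis) of 8 genes of class II presentation in the 15 descending colon libraries; circles are controls, triangles are mutants, colours are cages and black bars are cage means. All 5 libraries of cage C lie below all 5 of cage B for the first 6 genes, Ciita overlaps through a single library of cage C at 3.01 FPKM, and Ctss overlaps between the cages.

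The peptide editing genes lay on the same side without passing the threshold. H2-DMb1, the beta chain of H2-DM, was at 27.3, 55.7 and 11.4 FPKM in the controls and 21.6 and 9.01 in the mutants of cage B, against 2.22 and 2.36 and then 3.58, 3.87 and 1.33 in cage C. Its difference was -2.53 ± 0.42 (limma adjusted p = 0.139). H2-DMa, the alpha chain of H2-DM, was at 6.59 to 29.6 FPKM in cage B and at 1.70 to 3.66 in cage C, a difference of -1.98 ± 0.36 (adjusted p = 0.205). Neither overlapped between the cages. H2-DMb2, a second DM beta chain gene next to H2-DMb1 and similar enough that reads may be split between them, showed another pattern. It was at 4.98 and 4.23 FPKM in control B1 and mutant B2, at 0.28 to 1.30 in the other 3 libraries of cage B and at 0.44 to 1.43 in cage C (-0.55 ± 0.40, adjusted p = 0.809). H2-Ob, a chain of the DM inhibitor H2-DO, was at or below 0.71 FPKM in all 10 libraries and was not tested.

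Ciita, the transactivator (chromosome 16, 10480059 to 10528418), was at 3.39, 9.99 and 2.67 FPKM in the controls and at 3.75 and 3.90 in the mutants of cage B. In cage C it was at 0.86 and 0.64 FPKM in the controls and at 3.01, 1.19 and 0.33 in the mutants. Mutant C1, the library that stood apart, is the one that overlapped cage B. The difference was -1.39 ± 0.35 (limma adjusted p = 0.596) over all 10 libraries and -1.60 ± 0.29 (adjusted p = 0.199) without mutant C1. Ctss, the cathepsin that trims the invariant chain, was at 202 to 354 FPKM in cage B and at 85.5 to 240 in cage C, with overlap (-0.48 ± 0.29, adjusted p = 0.793), and without mutant C1 its difference was -0.26 ± 0.18 (adjusted p = 0.610).

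Of the 11 genes on the class II list, 10 were in the table and 9 were tested. All 9 were below 0, 4 passed, 7 had an unadjusted p under 0.05 (1.89% of all genes on the lower side), and the 5 libraries of cage C lay below the 5 of cage B without overlap at 6, where 0.536% of all genes tested did so. The median difference of the 9 was -2.53, beside 0.05 for all genes tested, of which 39.45% were below 0. The list was known from earlier results to move in this series and is described here, not tested. Without mutant C1 the median was -2.64 and 7 of 9 did not overlap, beside 0.999% of all genes. In that fit 0 of 12117 genes passed, with 1184 at an unadjusted p under 0.05, and the adjusted p of H2-Aa was 0.0504 at a difference of -3.88.

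The call depended on single libraries, while the size of the difference moved little. Leaving out control B1, mutant B1, control C1, control C2, mutant C1 or mutant C3 left 0 genes past the threshold, leaving out mutant B2 or mutant C2 left H2-Aa, leaving out control B2 left H2-Aa and the predicted gene Gm609, and leaving out control B3 kept all 4. Over these 10 fits the difference of H2-Aa ran from -4.24 to -3.58 and its adjusted p from 0.0213 to 0.386. The corresponding differences were -4.01 to -3.34 for H2-Ab1, -3.16 to -2.72 for H2-Eb1 and -3.89 to -3.29 for Cd74.

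**Figure D2:**
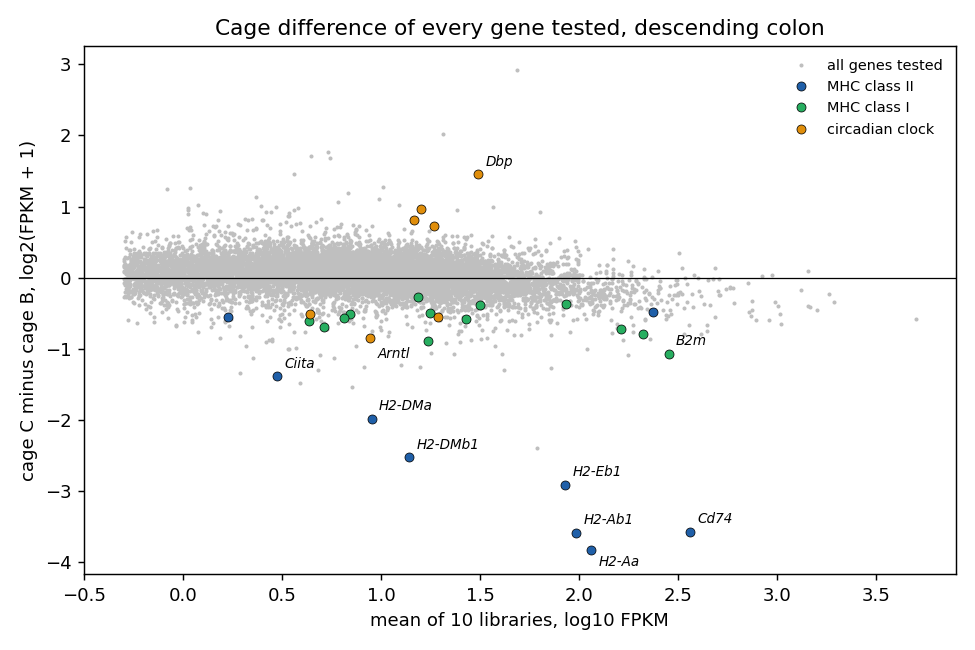
Each point is 1 of the 12128 genes tested, with its mean over the 10 libraries (log10 FPKM) against its cage C minus cage B difference in log2(FPKM + 1). Coloured points are picked members of 3 gene lists and do not show the whole class I and clock lists. Those of class I leave out H2-T3, which lay at 1.71. Those of the clock, out of 18 tested, are Arntl, Npas2, Cry1, Nr1d2, Tef, Dbp and Per3. H2-Aa, H2-Ab1, H2-Eb1 and Cd74 lie between -3.83 and -2.91, below the other labelled genes, and B2m lies at -1.07.

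Each genotype showed the class II difference when fitted alone. In controls (3 libraries of cage B, 2 of cage C) the mean of H2-Aa was 284 FPKM against 11.7 (-4.27 ± 0.52), and in mutants (2 and 3 libraries) it was 123 against 10.4 (-3.39 ± 0.62). The difference between these 2 values was 0.87 ± 0.93 in the interaction test (limma adjusted p = 1.00). The median of the list was -3.04 in controls, beside 0.10 for all genes, and -2.01 in mutants, beside 0.01. Fitted alone, neither genotype gave an adjusted p under 0.05 for H2-Aa (0.196 and 0.999).

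In the ascending colon the same genes lay lower in cage C, again below the threshold of the test. H2-Aa was at 288, 244 and 103 FPKM in ascending controls and 19.3 and 74.6 in ascending mutants of cage B, against 10.5, 10.1, 5.95, 8.36 and 14.6 in cage C. The difference was -3.03 ± 0.50 (limma adjusted p = 0.228). H2-Ab1 had -2.85 ± 0.40 (adjusted p = 0.106), Cd74 -2.76 ± 0.42 (0.164), H2-Eb1 -2.48 ± 0.47 (0.432), H2-DMb1 -2.16 ± 0.47 (0.784) and Ciita -1.22 ± 0.23 (0.432). Over the list, 8 of 9 were below 0 and the median was -2.16, beside 0.02 for all genes. Ascending mutant B1 was the lowest library of its cage for H2-Aa, H2-Ab1, H2-Eb1 and Cd74, with Cd74 at 147 FPKM against 468 to 1179 in the other 4. Of 12205 genes, 0 passed (limma), with 386 (3.16%) at an unadjusted p under 0.05, whereas without ascending mutant B1, 5 genes passed: Cd74, H2-Eb1, H2-Aa, H2-Ab1 and Gcg, the proglucagon gene. The difference between the regions was -0.80 for H2-Aa (adjusted p = 1.00), and 0 of 12349 genes passed the test of cage by region, with 266 (2.15%) at an unadjusted p under 0.05. The labels do not say whether same-numbered libraries of the 2 regions come from 1 mouse, so the ascending values may not be independent of the descending ones.

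Markers of antigen-presenting cells were measured beside these genes, and their part in the result was not tested. In bulk tissue, fewer cells of a type and less RNA per cell cannot be told apart. The 15 macrophage and monocyte markers summed to 51.5 to 114 FPKM in cage B and 44.0 to 72.9 in cage C. Of 10 members tested, 9 were below 0 (39.45% of all genes), with a median of -0.34. On the lower side 2 had an unadjusted p under 0.05 (1.89% of all genes), and none passed the threshold. The complement gene C1qb was at 2.32 to 4.79 FPKM in cage B and 1.46 to 3.40 in cage C (-0.55 ± 0.21), and the lysozyme gene Lyz2 at 11.7 to 52.8 and 7.58 to 23.6 (-0.92 ± 0.43), both at a limma adjusted p of 0.792. The list median was -0.04 in controls alone, beside 0.10 for all genes, and -0.70 in mutants alone, beside 0.01. The receptor Csf1r was at 1.22 to 2.54 FPKM in cage B and 0.73 to 2.57 in cage C, and the lysosomal marker Cd68 at 1.59 to 4.74 and 1.21 to 5.99. Of 10 dendritic cell markers 3 were in the table, with sums of 0.79 to 1.88 FPKM in cage B and 0.26 to 1.66 in cage C. The 13 B cell and follicle markers in the table summed to 1.99 to 19.2 FPKM and 3.64 to 20.5. Cd79a, a chain of the B cell receptor complex, was at or below 1.10 FPKM in all 10 libraries.

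MHC class I molecules, which show peptides from inside the cell to CD8+ T cells, were measured at lower levels in cage C in smaller steps, and no member passed. Of 22 members tested, 19 were below 0 (39.45% of all genes) and 3 were lower in cage C without overlap (0.536% of all genes). On the lower side 10 had an unadjusted p under 0.05 (1.89% of all genes). The median was -0.42. H2-K1, a classical heavy chain, was at 319, 313, 219, 286 and 196 FPKM in controls B1 to B3 and mutants B1 and B2, against 153, 136, 102, 189 and 184 in controls C1 and C2 and mutants C1 to C3 (-0.79 ± 0.22, limma adjusted p = 0.703). The second classical heavy chain H2-D1 was at 159 to 274 FPKM in cage B and 84.2 to 143 in cage C (-0.72 ± 0.21, adjusted p = 0.703). Tapbp, tapasin of the peptide loading complex, was at 85.7 to 114 and 60.2 to 81.3 FPKM (-0.37 ± 0.14, adjusted p = 0.792). These 3 separated the cages without overlap. B2m, the light chain that class I heavy chains share, was at 240 to 588 FPKM in cage B and 76.4 to 267 in cage C (-1.07 ± 0.36, adjusted p = 0.792), and the immunoproteasome subunits Psmb8 and Psmb9 had -0.89 ± 0.32 and -0.61 ± 0.23. Mutant C1 was the lowest library for H2-K1, H2-D1, Tapbp, B2m, Psmb8 and Psmb9. Without it the list median was -0.41 with 18 of 22 below 0 (32.4% of all genes), and B2m had -0.84 ± 0.28 (adjusted p = 0.458). The ascending list median was -0.19, with H2-K1 at -0.28 ± 0.20 and B2m at -0.19 ± 0.26.

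The nonclassical gene H2-T3, which encodes the thymus leukemia antigen of intestinal epithelium, lay on the other side. In the descending colon of cage B it was at 5.84 and 5.42 FPKM in control B1 and mutant B2 and at 0.03, 0.08 and 0.03 in control B2, control B3 and mutant B1, while all 5 libraries of cage C were at 5.36 to 9.35 (1.71 ± 0.58, limma adjusted p = 0.792). Control B1 and mutant B2 were also the libraries with the higher H2-DMb2. In the ascending colon H2-T3 was at 24.9 to 36.7 FPKM in cage B and at 44.9 to 57.2 in cage C, with none near 0.

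Genes of the interferon response are given because interferon gamma induces Ciita. Of 30 interferon-stimulated genes tested, 26 were below 0 (39.45% of all genes). Their median was -0.18, with none at an unadjusted p under 0.05 and none past the threshold. Of the same genes in the ascending colon, 3 of 30 were below 0 and the median was 0.35. Of 13 interferon-inducible GTPases and companions, 11 were below 0 (39.45% of all genes) with a median of -0.10. Ifi47, one of the GTPases, was at 3.31, 17.9, 3.14, 4.58 and 3.57 FPKM in cage B and at 1.17, 1.28, 0.56, 2.63 and 0.52 in cage C, in the library order used for H2-K1. The cages did not overlap, and the difference was -1.47 ± 0.41 (limma adjusted p = 0.703), beside -0.03 ± 0.38 in the ascending colon. Irf1, the interferon regulatory factor that acts on the class I and Ciita genes, was at 44.1 to 61.9 FPKM in cage B and at 26.8 to 50.2 in cage C (-0.45 ± 0.18, adjusted p = 0.792). T cells, a source of interferon gamma, left little RNA: their 20 markers summed to 6.3 to 14.5 FPKM in cage B and 5.6 to 11.6 in cage C. Within that list Cd7, a surface protein of T and NK cells, and the chemokine Ccl5 had -0.67 ± 0.19 and -0.68 ± 0.19 (both adjusted p = 0.703), and Itgae, the integrin of intraepithelial T cells, 0.51 ± 0.22 (0.792).

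Among the other genes with the smallest p, none passed the threshold. On the lower side the tubulin polymerization gene Tppp3 was at 50.0, 55.9, 49.7, 48.6 and 69.3 FPKM in cage B and at 25.6, 17.2, 30.4, 36.0 and 27.5 in cage C (-1.07 ± 0.16, limma adjusted p = 0.0998), and its relative Tppp at 24.9 to 37.0 and 14.3 to 24.2 (-0.74 ± 0.15, adjusted p = 0.282). B4galnt2, the glycosyltransferase that makes the Sda antigen on gut glycans, was at 138, 67.6, 102, 112 and 88.7 FPKM in cage B and at 26.5, 49.6, 47.5, 45.6 and 43.2 in cage C. All libraries of cage C lay below those of cage B, and the difference was -1.27 ± 0.22 (adjusted p = 0.156). In the ascending colon, where B4galnt2 ranged from 296 to 766 FPKM, the difference was -0.10 ± 0.25, and the difference between regions was -1.17 (adjusted p = 1.00). Of 35 genes of O-glycan synthesis tested, B4galnt2 among them, 21 were above 0 and 14 below (39.45% of all genes). Their median was 0.09, beside 0.05 for all genes. Galnt6, which adds the first sugar, had -0.30 ± 0.13, and Fut8, a core fucosyltransferase of N-glycans on the same list, 0.36 ± 0.14 (both adjusted p = 0.792).

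On the higher side, Ugt1a8, a glucuronidating enzyme whose exons are shared with other members of its locus so that reads may be split between them, was listed at 0 in 3 libraries of cage B and at 0.54 and 0.84 FPKM in controls B2 and B3, against 1.29 to 2.98 in cage C (1.27 ± 0.21, limma adjusted p = 0.139). It was listed at 0 in all 10 libraries of cage A, both regions. Slc10a2, the bile acid importer of the ileum, was listed at 0 in 4 libraries of cage B and at 0.37 FPKM in mutant B1, and was at 3.13, 1.51, 0.73, 1.16 and 1.36 in cage C (1.25 ± 0.21, adjusted p = 0.139). Its partner Fabp6, the intracellular bile acid carrier, lay on the other side, at 6.49 to 20.97 FPKM in cage B and 3.37 to 7.97 in cage C (-0.81 ± 0.30, adjusted p = 0.792). Tbc1d24, a gene of vesicle traffic, was at 3.70 to 5.79 FPKM in cage B and 8.23 to 10.5 in cage C (0.74 ± 0.12, adjusted p = 0.139). Over all genes, 1.11% were higher in every library of cage C than in any of cage B. The remaining genes of the naming rule, Camk2b, Pdgfd, Slc2a5, Arl15, Ccdc61, Cd200, Xpnpep2 and Hdac11, had differences of 0.55 to 0.93 with adjusted p of 0.273 to 0.530. Xpnpep2, a membrane aminopeptidase, was at 0.71 to 1.5 FPKM in cage B and 1.78 to 4.13 in cage C. In the ascending colon the same gene was at 0.25 to 2.77 FPKM in cage B and 9.78 to 28 in cage C (2.46 ± 0.35, adjusted p = 0.106).

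**Figure D3:**
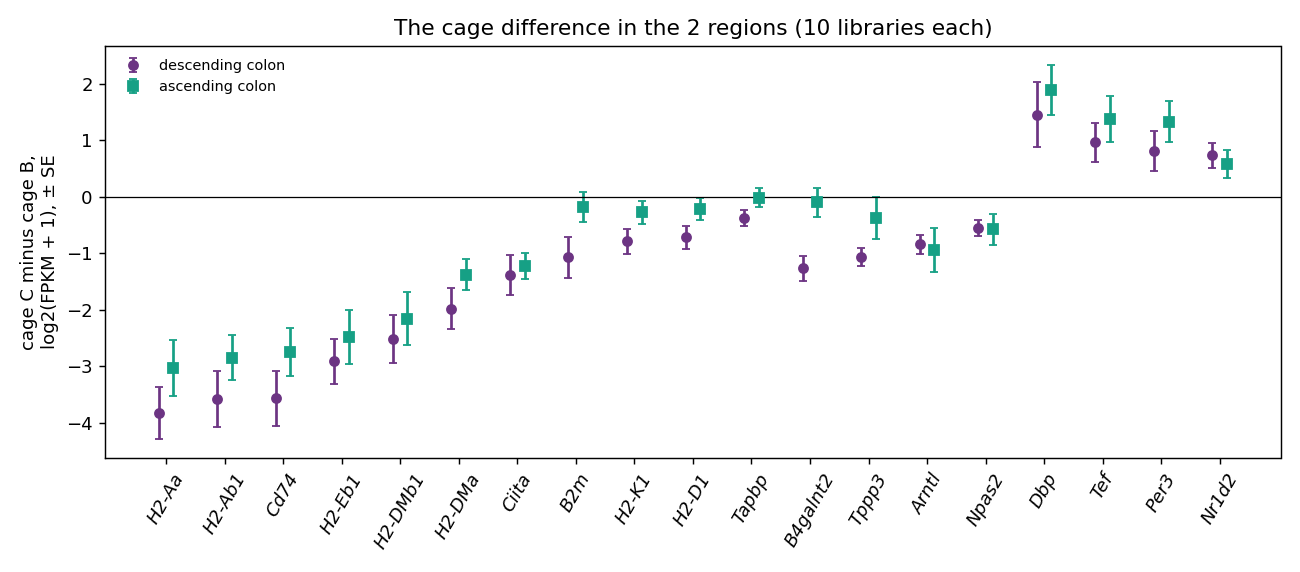
Cage C minus cage B difference in log2(FPKM + 1), with standard errors, for 19 genes in the descending colon (circles) and the ascending colon (squares). H2-Aa is at -3.83 and -3.03 in the 2 regions, whereas B4galnt2 is at -1.27 and -0.10 and B2m at -1.07 and -0.19.

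Clock genes have RNA that rises and falls through the day, and none of the 18 tested passed. Of these, 13 were above 0 and 5 below (39.45% of all genes), with a median of 0.17. On the higher side 4 (4.14% of all genes) and on the lower side 3 (1.89% of all genes) had an unadjusted p under 0.05. Without mutant C1, 10 were above 0 and 8 below (32.4% of all genes), and the median was 0.06. Arntl, which encodes BMAL1 of the activating arm, was at 11.9, 7.67, 11.3, 13.7 and 10.9 FPKM in cage B and at 4.43, 3.68, 7.49, 8.78 and 8.16 in cage C (-0.84 ± 0.17, limma adjusted p = 0.296). Its partner Npas2 had -0.55 ± 0.14 (adjusted p = 0.615) and the repressor Cry1 -0.50 ± 0.21 (0.792). The output factor Dbp, whose RNA is high when that of Arntl is low, was at 6.54, 27.03, 18.3, 5.18 and 19.8 FPKM in cage B and at 35.8, 39.2, 121, 18.6 and 17.5 in cage C. Its difference was 1.45 ± 0.57 (adjusted p = 0.792), and 1.03 ± 0.40 without mutant C1, which held the highest value. Tef, of the same family, had 0.96 ± 0.34, the repressor Nr1d2 0.73 ± 0.22 (adjusted p = 0.723) and Per3 0.80 ± 0.36, and without mutant C1 these were 0.75 ± 0.28, 0.62 ± 0.19 and 0.55 ± 0.26. In cage A, Dbp was at 1.02 to 2.32 FPKM and Arntl at 14.1 to 20.3, so that the cage means went A, B, C from low to high for Dbp and from high to low for Arntl. The ranges of cages B and C overlapped for both genes, and those of cages A and B for neither. The ascending colon gave -0.95 ± 0.40 for Arntl and 1.89 ± 0.44 for Dbp. The labels give no time of day for collection, so a shift in collection time and the cage cannot be told apart, and how the clock genes bear on the class II difference was not tested.

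**Figure D4:**
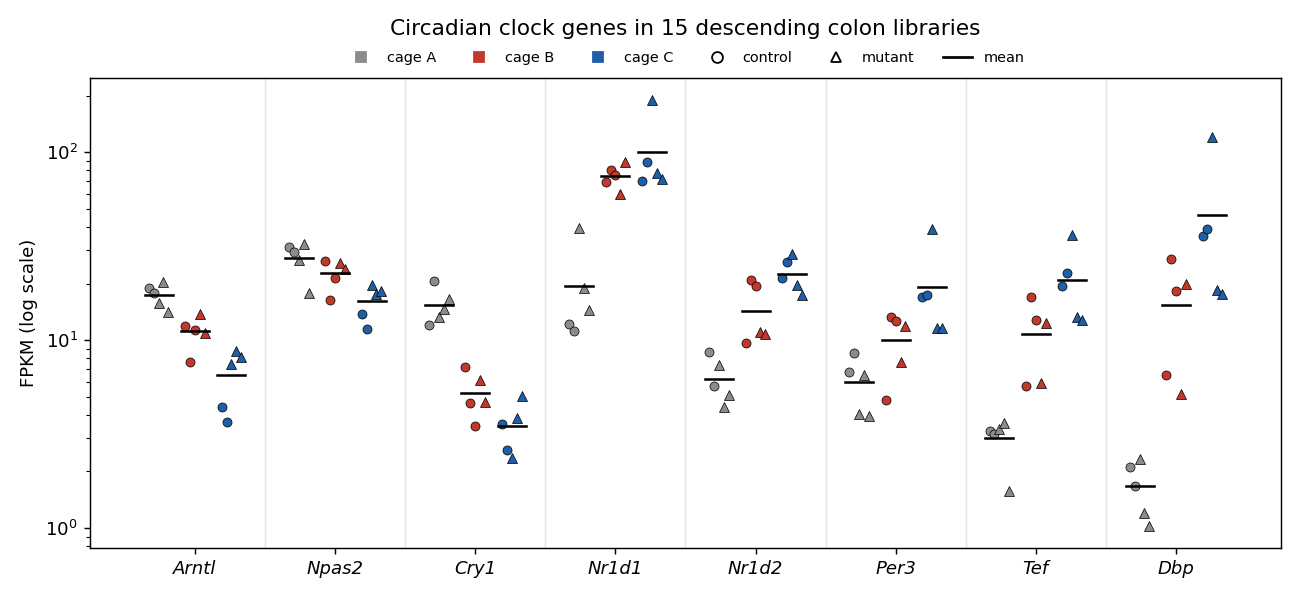
FPKM (log axis) of 8 clock genes in the 15 descending colon libraries, marked as in the plot of class II genes. Dbp lies at 1.02 to 2.32 FPKM in cage A, 5.18 to 27.03 in cage B and 17.5 to 121 in cage C, while Arntl lies highest in cage A, at 14.1 to 20.3 FPKM.

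No epithelial list had a member past the threshold. Of 30 genes of absorptive colonocytes, 27 were below 0 (39.45% of all genes) with a median of -0.27. Without mutant C1 the count was 23 (32.4% of all genes) and the median -0.30. Members with an unadjusted p under 0.05 included the surface carbonic anhydrase Car4 (-0.66 ± 0.25), the brush border cadherin Cdhr5 (-0.58 ± 0.19), the keratin Krt20 (-0.45 ± 0.20) and the epithelial sodium channel subunit Scnn1g (-1.25 ± 0.52), all at a limma adjusted p of 0.792. The ascending list median was -0.02. Of 25 ion and water transport genes tested, 12 were above 0 and 13 below (39.45% of all genes), with a median of -0.0013. Without overlap, 2 of the 25 were lower in cage C, where 0.536% of all genes were: the bicarbonate cotransporter Slc4a4, at 47.0 to 72.8 FPKM in cage B and 25.1 to 40.05 in cage C (-0.81 ± 0.17, adjusted p = 0.358), and the colonic proton pump Atp12a, at 219 to 323 and 148 to 211 (-0.59 ± 0.15, adjusted p = 0.589). Of 39 nuclear genes of the respiratory chain, 37 were below 0 (39.45% of all genes) with a median of -0.24. Without mutant C1, however, 15 of 39 were below 0 (32.4% of all genes) and the median was 0.03. Goblet cell genes had a median of 0.02 over 26 members, and genes of mitosis and cell division -0.06 over 30, none of them past the threshold.

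A cage difference that depended on genotype was called at 1 of 12128 genes (0.00825%), with 73 (0.602%) at an unadjusted p under 0.05. The gene was Eno1b (ENSMUSG00000059040.4; chromosome 18, 48045335 to 48048412), a gene close in sequence to the enolase gene Eno1, so that reads may be split between them. In cage B it was at 12.5, 6.89 and 9.48 FPKM in the controls and was listed at 0 in both mutants. In cage C it was at 5.42 and 3.24 FPKM in the controls and at 6.90, 7.75 and 8.68 in the mutants. The cage difference was therefore -0.99 ± 0.28 in controls and 3.13 ± 0.20 in mutants, and the interaction was 4.12 ± 0.37 (limma adjusted p = 0.00688). The ascending libraries divided in the same way, with 13.7, 4.90 and 14.6 FPKM in controls and 0 in both mutants of cage B, and 6.12 to 14.8 in cage C. In cage A it was listed at 0 in all 10 libraries of both regions. Eno1b was on the list of genes known to vary between C57BL/6J and 129 mice. The mutants of cage B, both listed at 0, carry the mixed strain label. Whether the call follows the mutant genotype or a strain difference between mice was not tested. Of 15 list members tested, 13 were above 0 and 2 below (39.45% of all genes). On the higher side 1 had an unadjusted p under 0.05 (4.14% of all genes). The list median was 0.20, beside 0.05 for all genes, and no member passed as a cage difference.

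Gcnt1, which builds core 2 O-glycans on the core 1 that C1galt1 makes, had the next smallest p of the interaction without passing (2.43 ± 0.38, limma adjusted p = 0.466). It was at 35.9, 23.7 and 22.97 FPKM in the controls of cage B and at 4.23 and 3.39 in its mutants, against 21.5 and 12.7 in the controls and 13.3, 17.7 and 15.03 in the mutants of cage C. Mutants of cage A were at 17.2 to 30.8 FPKM, so the low values in the descending colon belonged to the 2 mutants of cage B. The ascending mutants of cage B were at 4.50 and 3.74 FPKM, beside 8.88 to 19.9 in its ascending controls and 4.73 in ascending mutant C1. Duox2, an epithelial oxidase that makes hydrogen peroxide, had an interaction of -1.67 ± 0.28 (adjusted p = 0.587), and Rbp2, a retinol binding protein, and Tnf, the cytokine, followed with adjusted p of 1.00 each.

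The inflammasome gene Nlrp1b, on the same strain list, split cage B without regard to genotype. In the descending colon it was at 0.05 and 0.04 FPKM in controls B1 and B2 and listed at 0 in mutant B1, but at 3.92 in control B3 and 3.72 in mutant B2. The ascending libraries with the same numbers were listed at 0 in controls B1 and B2 and mutant B1 and were at 1.87 and 2.19 in control B3 and mutant B2. All 5 descending libraries of cage C were at 1.86 to 7.5 FPKM. The cage difference was 1.01 ± 0.54 (limma adjusted p = 0.792). In the descending colon the 3 libraries of cage B with Nlrp1b near 0 were also those with the higher H2-Aa, at 290, 454 and 185 FPKM, against 108 and 60.6 in the other 2. The same split did not order the ascending libraries, where H2-Aa was at 288, 244 and 19.3 FPKM in the 3 and at 103 and 74.6 in the other 2. It was noticed after the values were seen, and its part in the class II difference was not tested.

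**Figure D5:**
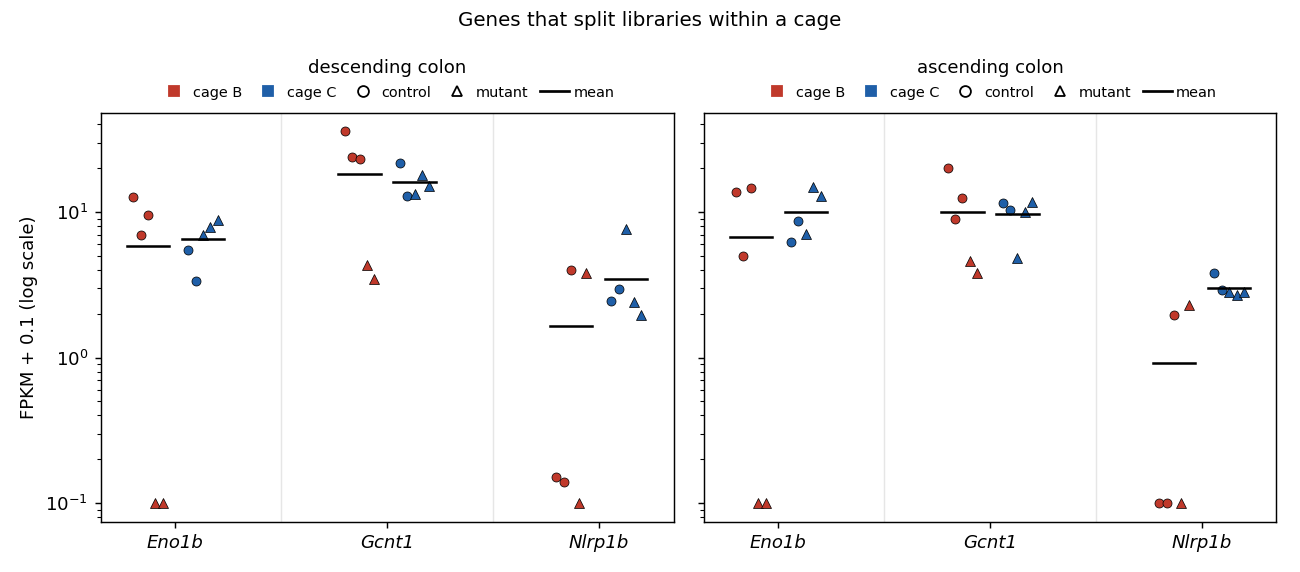
FPKM plus 0.1 (log axis) of Eno1b, Gcnt1 and Nlrp1b in descending (left) and ascending (right) libraries of cages B and C, marked as in the plot of class II genes. Eno1b is listed at 0 in the mutants of cage B in both regions, Gcnt1 is lowest there in the descending colon at 3.39 and 4.23 FPKM, and Nlrp1b is at or near 0 in 3 of the 5 libraries of cage B.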

How the data were processed

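Total RNA from pieces of mouse colon was depleted of ribosomal RNA and sequenced as single reads of 50 nt, per the labels' protocols. The authors deposited FPKM values. The tools listed in the submitters' processing notes are bcl2fastq, STAR and DESeq2, with the genome GRCm38 (mm10); for the gene counter and its annotation nothing is stated in the labels. The table holds 14475 genes, of which 14472 were matched to GENCODE M21 for positions.

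No read counts were used, so depth was estimated from the spacing of low values, of which 56.1 to 67.3% lay within 0.2 of a step. The step was the one that fitted best, and values without steps would in part lie there too, so the estimate is rough. The estimate entered no test, and precision comes from the spread between libraries.

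Tests ran on log2(FPKM + 1) for genes averaging 0.5 FPKM or more in the fitted libraries, where limma 3.58.1 (R 4.3.3, eBayes with trend) used a model with genotype as covariate, two-sided, with Benjamini-Hochberg adjustment over all genes and a threshold of 0.05. A difference on this scale understates the change of low genes. The labels do not say whether libraries are separate mice, so p-values measure the spread between libraries. With a single cage on each side, they do not measure the spread between cages or between ages. The fits were also run on simulated data with independent noise for each gene and library. That setting holds no library that stands apart as mutant C1 did, and no result here rests on it.

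Named genes were those past the threshold, filled to 10 in each direction by the smallest p, plus up to 4 members of each list, the 5 genes of smallest p of each interaction and C1galt1 and B3gnt6. Predicted genes were left out of the fill. Other members of these lists were named for their role. Gm609, Gcg, Stat2, Dnmt1, Ift27, Prdm10, Nlrp1b and H2-T3 were singled out after their values or promoters were seen. Members and lists were chosen with earlier results of these data known. Of 49 lists, the text gives those on presentation, interferon, immune cells, epithelium, O-glycans and the clock.

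Alternatives were pseudocount, filter, scaling, quantile normalization, array weights, robust moderation, the libraries in the fit, each library left out and a replicate block. List counts without mutant C1 were added after seeing the data. Same-numbered libraries of cages B and C did not deviate together, with correlations of -0.03 to -0.49 over genes.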

Additional observations from a re-analysis of the deposited data

Results flagged for a closer look

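For H2-Eb1 in the descending colon of cage C, mutant C3 was set apart from the other libraries: the gap from its 7.24 FPKM to the next library, at 15.8, was 0.7204 of the range of the 5 libraries on the log2(FPKM + 1) scale. About 1 group in 20 would show such a gap by chance if the group were fixed in advance. This group was flagged after the values were seen, so that rate is no test of it. Mutant C3 was also the lowest library of cage C for H2-Aa, H2-Ab1 and Cd74.

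For Eno1b the cage C minus cage B difference differed between the genotypes by 4.12 on the log2(FPKM + 1) scale (limma adjusted p = 0.00688), since both mutants of cage B were listed at 0 and the mutants of cage C were at 6.90 to 8.68 FPKM. The call was lost without mutant B1, mutant B2 or control C2, each of which left 0 genes.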

How the results depend on the processing

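The number of genes called between the cages in the descending colon was 4, and it moved to 0 with a pseudocount of 0.1, no filter, robust moderation, quantile normalization, median-of-ratios scaling, controls only and the replicate block, to 1 in mutants only (Eno1b), to 10 with all 30 libraries and to 17 with array quality weights, and ranged from 0 to 4 as each library was left out. The cause was not tested. H2-Aa kept its direction in all 23 alternatives, at -4.27 to -3.39, with adjusted p from 9.42e-05 to 0.999. With array quality weights, which put less weight on deviating libraries, 5 of the 17 were higher and 12 lower in cage C, and H2-DMa, H2-DMb1, B4galnt2 and Tppp3 were among them. For cage by genotype the count of 1 went to 0 with the replicate block and ranged from 0 to 1 over left-out libraries. In the ascending colon the count of 0 went to 12 with the replicate block and ranged from 0 to 5. The replicate block used numbers that did not pair the libraries of cages B and C. Directions turned for Eno1b (-0.99) and Gcnt1 (-0.67) in controls only, and for C1galt1, whose difference was near 0, with quantile normalization (0.0070), array quality weights (0.075) and controls only (0.024), and over left-out libraries, where it ranged from -0.12 to 0.13 and turned without mutant B1 (0.091) or mutant C1. Median-of-ratios scaling moved the median of all genes by 0.06. At an estimated 5.1 to 8.81 M reads, genes below about 0.5 FPKM were not tested.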
